A study of Mus with 6 samples.

Results

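The genes considered here encode the T cell receptor complex, its coreceptors and their close partners: Cd3e, Cd3d, Cd3g, Cd4, Cd8a, Cd8b1, Cd2, Cd5, Cd28 and Lck. They were chosen by Ensembl ID for their known roles, with no threshold on measured values but with earlier results of these data known. Of the 10 IDs, 1 had a row among the 15646 genes of the count table, that of Lck (ENSMUSG00000000409.14). The other 9 had no row in the table used here, and an ID with no row carries neither a value of 0 nor an upper limit. They are ENSMUSG00000032093 (Cd3e), ENSMUSG00000032094 (Cd3d), ENSMUSG00000002033 (Cd3g), ENSMUSG00000023274 (Cd4), ENSMUSG00000053977 (Cd8a), ENSMUSG00000053044 (Cd8b1), ENSMUSG00000027863 (Cd2), ENSMUSG00000024669 (Cd5) and ENSMUSG00000026012 (Cd28), and they are not analysed here. The results therefore describe Lck alone and do not speak for T cells as a population.

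RNA was sequenced from pancreatic tumors grown after orthotopic implantation, that is, in the pancreas itself, of KPC1199, a mouse pancreatic ductal adenocarcinoma (PDAC) line. The hosts were genetically obese ob/ob mice, which lack functional leptin, with 3 libraries (obese 1, 3 and 4), or lean wild-type (WT) mice, also with 3 libraries (lean 1, 2 and 3). All tumors came from the same line, and the labels give no further treatment, host age or pooling. Titles beginning OB were read as obese, and those beginning ND, an abbreviation that the labels do not explain, as lean. The labels do not state that each library is a mouse of its own, so the p-values reflect only how far these samples spread, and part of that spread may be technical.

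On the surface of a T cell, the antigen-binding receptor chains sit in a complex with the CD3 chains, whose cytoplasmic tails carry the signalling motifs. CD4 or CD8 binds the presenting MHC molecule and brings along Lck, a Src-family tyrosine kinase attached to the coreceptor tail. Lck phosphorylates the CD3 tails, which allows the kinase ZAP-70 to dock and the signal to spread. CD28 gives the costimulatory signal, CD2 is an adhesion receptor, and CD5 dampens receptor signalling. Natural killer cells also express Lck, so the transcript is not exclusive to T cells.

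In the RefSeq annotation of the assembly GRCm38.p6, Lck is a protein-coding gene on chromosome 4, from 129548344 to 129573641. It contains the microRNA gene Mir8119. The next gene by increasing coordinate, Fam167b, starts 3173 bases above 129573641, with strand not considered. Whether reads were assigned by strand is not given in the sources used here, so reads of an overlapping gene cannot be told apart from those of Lck. Of the 9 IDs without a row, those of the CD3 genes belong to a cluster of 40.1 kb on chromosome 9 that holds Cd3g, Cd3d and Cd3e, and those of Cd8b1 and Cd8a to a stretch of 56.4 kb on chromosome 6.

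The libraries held 7122533 to 8521244 counts each. The first principal component of log2 CPM (CPM, counts scaled to a common library size) separated obese from lean tumors. The second set obese 3 apart, at -37.6 against -6.50 to 17.7 for the other 5 libraries, so the level, ratio and fold change of Lck are also given without obese 3. The tumor, T cell and other cell type markers could not be looked up, because the symbols could not be tied to the Ensembl IDs of the table.

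Lck was near the low end of the listed genes by reads, in both kinds of host, and no difference between obese and lean hosts was detectable at this depth. Obese 1 held 5 reads of Lck, obese 3 held 13 and obese 4 held 7, against 5 in lean 1, 4 in lean 2 and 9 in lean 3. Obese 3 was the highest and lean 3 the next, while the other 4 libraries had 4 to 7 reads, so the groups overlapped. Counting error alone gave wide exact Poisson 95% intervals: 6.92 to 22.2 reads for obese 3, the highest library, and 1.09 to 10.2 for lean 2, the lowest. These intervals overlap, and intervals of this kind treat each read as an independent molecule.

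**Figure D1:**
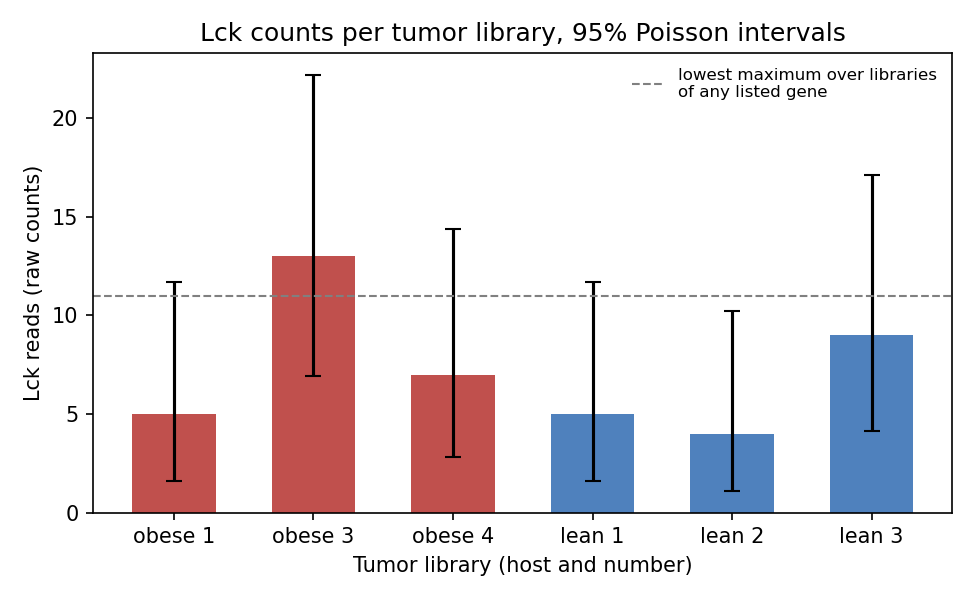
Reads of Lck (raw counts, vertical axis) in each tumor library of obese hosts (red) and lean hosts (blue); error bars are exact Poisson 95% intervals, and the dashed line marks 11 counts, the lowest maximum over the 6 libraries of any listed gene. Obese 3, with 13 reads, is the single library above the line, and the groups overlap.

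Scaled to library size, the level of Lck was 0.586 CPM in obese 1, 1.58 CPM in obese 3 and 0.846 CPM in obese 4, against 0.592 CPM in lean 1, 0.567 CPM in lean 2 and 1.13 CPM in lean 3. A single read was worth 0.117 to 0.142 CPM, so with the libraries ranked by level, neighbouring values differed by a few reads at most. The mean level was 1.01 ± 0.517 CPM in obese and 0.762 ± 0.316 CPM in lean hosts (SD, n = 3 each). The difference, 0.243 CPM, was smaller than the SD of either group (exact permutation test, two-sided, p = 0.6, where 0.1 is the smallest that 3 against 3 allows). In whole-tumor RNA, fewer cells that express Lck and less Lck RNA per cell cannot be told apart.

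Without obese 3, the order of the group means turned. The mean level was then 0.716 ± 0.183 CPM in obese (SD, n = 2) and 0.762 ± 0.316 CPM in lean hosts (SD, n = 3), a difference of -0.0461 CPM (exact permutation test, two-sided, p = 0.9, smallest possible 0.1). Summed reads numbered 25 in obese and 18 in lean hosts, a ratio of 1.3 per effective library size with an exact (Clopper-Pearson) 95% interval of 0.683 to 2.54 for counting error only. Without obese 3 they numbered 12 in obese and 18 in lean hosts, a ratio of 0.932 with an interval of 0.409 to 2.04. The direction of the difference thus rested on that library.

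The presence of Lck in the table may also have rested on obese 3. Every listed gene had at least 11 counts in at least 1 library, and 249 genes had a maximum of exactly 11. The maximum of Lck was 13, and obese 3 was the sole library in which it reached 11. The same held, with 1 library alone at 11 counts or more, for 876 listed genes, of which 171 reached it in obese 3 and 99 to 200 in each of the other libraries. The rule by which scarce genes were left out of the table is not given in the sources used here. A gene listed through 1 high library has that library in 1 of the groups, so a higher mean there is in part built in.

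Among all listed genes, 4.77% (746 of 15646) had fewer reads in total than the 43 of Lck, and the median gene had 885.5. These are read counts, not corrected for transcript length, and they describe how precisely a gene was measured rather than how strongly it was expressed.

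Because of its low counts Lck did not enter the main test. The expression filter kept 14348 genes that reached about 1.2 CPM in at least 3 libraries; Lck reached that level in 1 library, obese 3. Thus 0 of the 10 IDs were tested, and 0 were called, beside 20.8% of the genes that were tested (10.3% higher and 10.6% lower in obese hosts; edgeR quasi-likelihood test, adjusted p under 0.05).

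When all 15646 listed genes were fitted without a filter, Lck had a log2 fold change of 0.39 (SE 0.69), obese over lean, that is, a fold of 1.31 with a 95% interval of 0.458 to 3.73. It did not pass the test (edgeR adjusted p = 0.729, unadjusted p = 0.586), in a fit in which 18.6% of all genes were called (9.10% higher and 9.45% lower in obese hosts). The interval includes both lower and higher levels in obese tumors. Without obese 3 the log2 fold change was -0.09 (edgeR adjusted p = 0.951). Also without the expression filter, DESeq2 gave 0.39 (adjusted p = 0.807) and limma-voom 0.31 (adjusted p = 0.776). DESeq2 used its own scaling factors and its default filtering on mean count before adjustment.

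**Figure D2:**
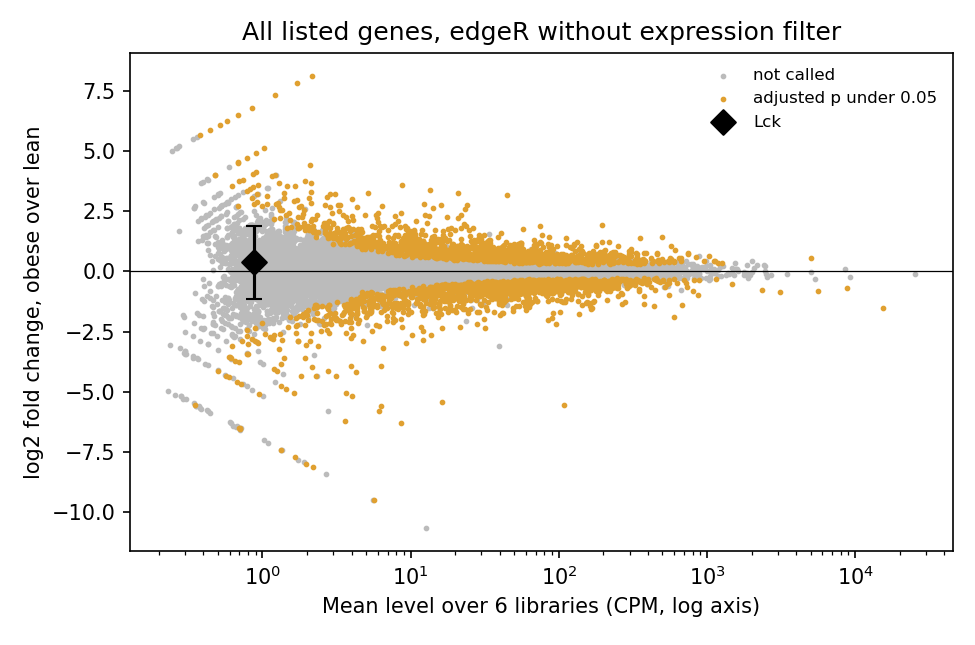
Log2 fold change of obese over lean tumors (vertical axis) against the mean level over the 6 libraries (CPM, log axis) for all 15646 listed genes in the edgeR fit without a filter, with called genes in orange and the others in grey. Lck (black diamond, bar: 95% interval) lies at the low end of the abundance range, and its interval of -1.13 to 1.90 includes 0.

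Genes measured with about as many reads give a rough guide to what could be called at this depth. The table held 734 other genes with a sum of 35 to 53 reads, close to the 43 of Lck. Like Lck, these genes had at least 11 counts in at least 1 library, so the size of their changes may be in part built in. In the fit without a filter, 34 of them were called (4.63%; edgeR adjusted p under 0.05), 18 higher (2.45%) and 16 lower (2.18%) in obese hosts. The smallest change called among them was 4.38-fold, a log2 fold change of 2.13 in size. The fitted change of Lck was smaller in size than that of 75.1% of these genes (551 of 734), whose median log2 fold change was 0.77 in size with a median SE of 0.77.

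**Figure D3:**
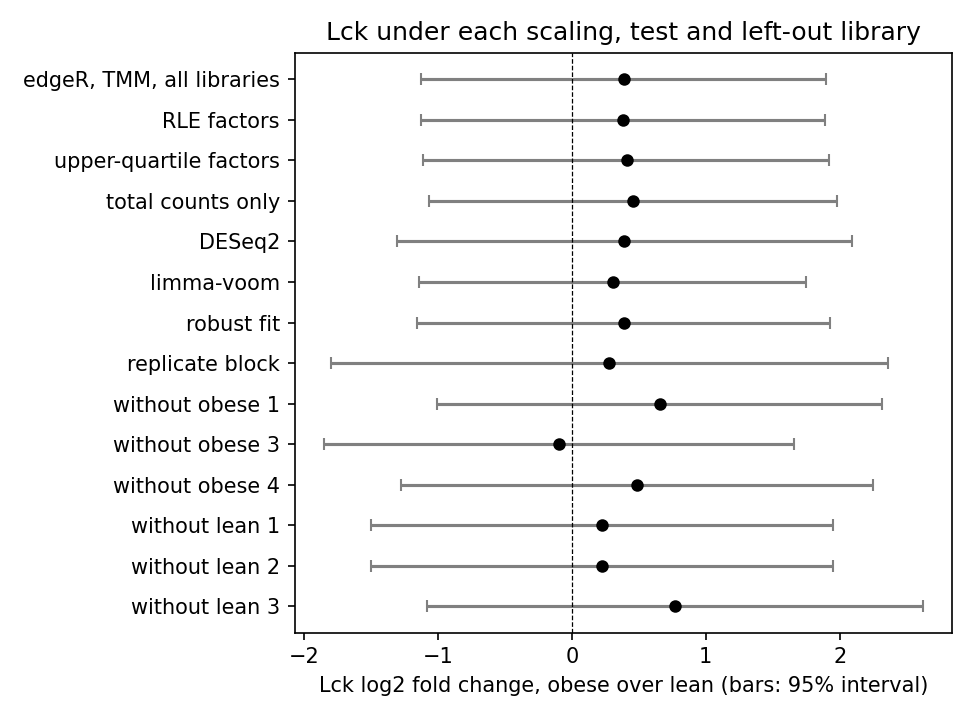
Log2 fold change of Lck, obese over lean (horizontal axis), without a filter under each scaling, test and left-out library; points are estimates and bars are 95% intervals. All intervals include 0, and the estimate is below 0 without obese 3 and above 0 in the other fits.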

How the data were processed

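For the 6 tumor libraries, raw counts by gene were deposited by the authors in 1 table. Ribosomal RNA had been removed from QIAzol-extracted total RNA, per the labels' protocols, so unspliced RNA can also be counted. The submitters' processing notes name CASAVA, STAR, Subread and the build GRCm38, without versions, settings or the handling of strand. All 6 columns matched 1 sample title each.

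The members and lists were chosen with earlier results of these data known. Named genes were to be all 10 members whatever their values, plus members of 15 lists by symbol. The RefSeq table used here carries an Ensembl ID in 0 of 49997 rows, so 0 of the 132 list symbols were matched and no list count was made. The name of Lck follows the ID and symbol of the selection, and its position was read from RefSeq by symbol. Planned ratios between members (Cd4, Cd8a and others against CD3) could not be formed.

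Testing used edgeR 4.0.16 (R 4.3.3): expression filter at defaults (minimum count 10, minimum total 15), TMM factors, quasi-likelihood F test without covariates, two-sided, with Benjamini-Hochberg adjustment over all genes tested. The SE is the log2 fold change divided by the square root of F, and 95% intervals use the fit's degrees of freedom. Since the filter removed Lck, its fold change comes from the same fit without a filter. Log2 CPM for the principal components used a prior count of 2. Alternatives were RLE, upper-quartile and no factors, no filter, a filter of 1 CPM in 3 libraries, limma-voom (limma 3.58.1), DESeq2 1.42.0, edgeR's robust option, a replicate block, and omission of each library in turn. In the replicate block, obese 4 and lean 2 had no like-numbered library in the other group. The group effect there came from numbers 1 and 3. The edgeR, DESeq2 and limma-voom fits with the default filter were tested on simulated data. The fit without a filter, from which the fold change of Lck comes, was not.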

Additional observations from a re-analysis of the deposited data

How the results depend on the processing

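Lck was outside the tested genes with the default filter, with the filter of 1 CPM in 3 libraries and with each library left out, so 0 members were called there; in the fits without a filter it was tested and 0 were called. Its log2 fold change without a filter was combined with each other choice after the data were seen. In 13 such alternatives it ranged from -0.09 to 0.77, was above 0 in 12 and passed the threshold in 0, with adjusted p-values of 0.574 to 0.951 and a lowest unadjusted p of 0.374 (edgeR, DESeq2 and limma-voom). It reversed without obese 3, to -0.094. Leaving out a library gave -0.094 to 0.767, with 0.657 without obese 1 and 0.767 without lean 3, the libraries whose removal raised it by over 1.5 times, and 0.223 without lean 1 and 0.224 without lean 2, which lowered it by as much; the cause was not tested. The difference in mean level reversed likewise, to -0.0461 CPM without obese 3. It was at most 0.452 CPM, and 0.24 to 0.293 CPM with other scaling factors. Over all genes, 2991 were called, 2903 to 3099 with other scalings, filters and tests, and 1179 to 3066 with 1 library left out. Deviations of like-numbered libraries (1 and 3) correlated at 0.0901 and 0.0743, other obese-lean pairs at -0.13 to 0.0662. The labels do not say that a number pairs samples. Using numbers 1 and 3 only, the replicate block called 2087 genes and gave Lck a log2 fold change of 0.28 (edgeR adjusted p = 0.89).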
